A study of Arabidopsis thaliana with 18 samples.

Results

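The nuclear photosynthesis genes described here are 43 of the 33602 genes in each of the authors' deposited tables. They were chosen by identifier, without a cut on any measured value, but with earlier results of these data known. They encode the chlorophyll-binding antenna proteins of photosystem II (LHCB, 13 genes) and photosystem I (LHCA, 6 genes), the small subunit of Rubisco (RBCS, 4 genes), subunits of photosystem I (10 genes) and photosystem II (7 genes), plastocyanin (PETE, 2 genes) and Rubisco activase (RCA (AT2G39730), 1 gene). RNA came from seeds of Arabidopsis thaliana lines complemented with a version of a gene that lacks its DS segment (ΔDS) or with the intact version (+WT). From knowledge of the study that gene is FLOE1 (AT4G28300), which encodes a protein that condenses in the embryo as a seed takes up water. The 6 groups were dry ΔDS and dry +WT seeds, imbibed ΔDS and imbibed +WT seeds, and ΔDS and +WT seeds that took up water with 220 mM NaCl (salt seeds), with 3 replicates each and 18 samples in all. Imbibed and salt seeds were stratified in darkness on MS medium at 4 °C for 5 days and then spent 4 hours in light at 22 °C, and dry seeds had no such treatment. All groups carry a complementing copy. The sources used here do not give the promoter of that copy, the number of transgenic lines or whether replicates came from separate plants, so p-values measure only the spread between these samples.

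The photosystems absorb light with the help of the antenna proteins and pass electrons along a chain in which plastocyanin is a small soluble carrier. Rubisco, made of large subunits encoded in the plastid and small subunits encoded in the nucleus, fixes carbon dioxide, and Rubisco activase keeps it active. In Arabidopsis the embryo is green while it fills and loses its chlorophyll as the seed matures. Transcripts of nuclear photosynthesis genes are known to build up again when imbibed seeds meet light.

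For each of the 3 states the authors compared the genotypes, and the log2 fold changes with standard errors (SE) given here are theirs. The headers name no direction; because the titles put ΔDS before +WT, a positive value was taken as higher in ΔDS, and a reverse order would turn every sign. Values per library are not in these tables. Group means are therefore implied by the deposited mean and fold change, with 3 libraries assumed on each side, and they have no SD. A level is a mean of normalised counts per kilobase of exon, scaled so that its table sums to 1e6 (ppm). Each table was normalised on its own, so levels set across seed states are descriptions with no test.

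FLOE1 had 180, 293 and 431 implied normalised counts in dry, imbibed and salt ΔDS seeds, against 8288, 13978 and 13777 in the +WT seeds of the same states. How reads of the shortened copy were counted is unknown, and effects of the deletion cannot be told apart from those of a line or of the amount of FLOE1 transcript. The authors' deposited tables summed to between 24526188 and 26367661 mean normalised counts. Transcripts of 5 embryo storage and late maturation genes summed to 47623, 38546 and 70068 ppm in dry, imbibed and salt ΔDS seeds and to 53846, 92273 and 91329 ppm in +WT seeds. All 5 of them were lower in imbibed ΔDS seeds and all 5 in salt ΔDS seeds, and 3 of 5 in dry ΔDS seeds, and the authors' deposited table for the imbibed state gave a median log2 fold change of -1.40 over the list. Of 2 endosperm markers, EPR1 was lower and MAN7 higher in imbibed ΔDS seeds, and the pair summed to 8547 ppm in ΔDS and 18651 ppm in +WT. Seed coat markers summed to 14.4 ppm in imbibed ΔDS and 8.27 ppm in imbibed +WT seeds, with BAN and TT10 at 0 and TTG2 and MUM4 higher in ΔDS. What these shifts contribute to the results below was not tested, and in whole seeds fewer cells of a type cannot be told apart from less RNA per cell.

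Together the 43 genes made up a small part of the RNA in each state. Their summed level was 196 ppm in dry ΔDS and 233 ppm in dry +WT seeds. It was 940 ppm in imbibed ΔDS and 972 ppm in imbibed +WT seeds, and 724 ppm in salt ΔDS and 775 ppm in salt +WT seeds. With both genotypes pooled, the level after imbibition was above that in dry seeds for 38 of the 43 genes, and the median ratio was 8.27 over the 39 genes with a dry level above 0. The level in salt seeds was below that in imbibed seeds for 36 genes and above it for 7, with a median ratio of 0.573. Such shifts were common over all genes tested in imbibed seeds. There the imbibed level was above the dry level for 97.0% of 4130 genes called higher in ΔDS (DESeq2 adjusted p under 0.05). It was so for 55.6% of 3794 genes called lower and 81.9% of 11506 not called. The imbibed level was above the salt level for 98.2%, 42.3% and 83.8% of these sets. Members were not tested against these shares.

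**Figure D1:**
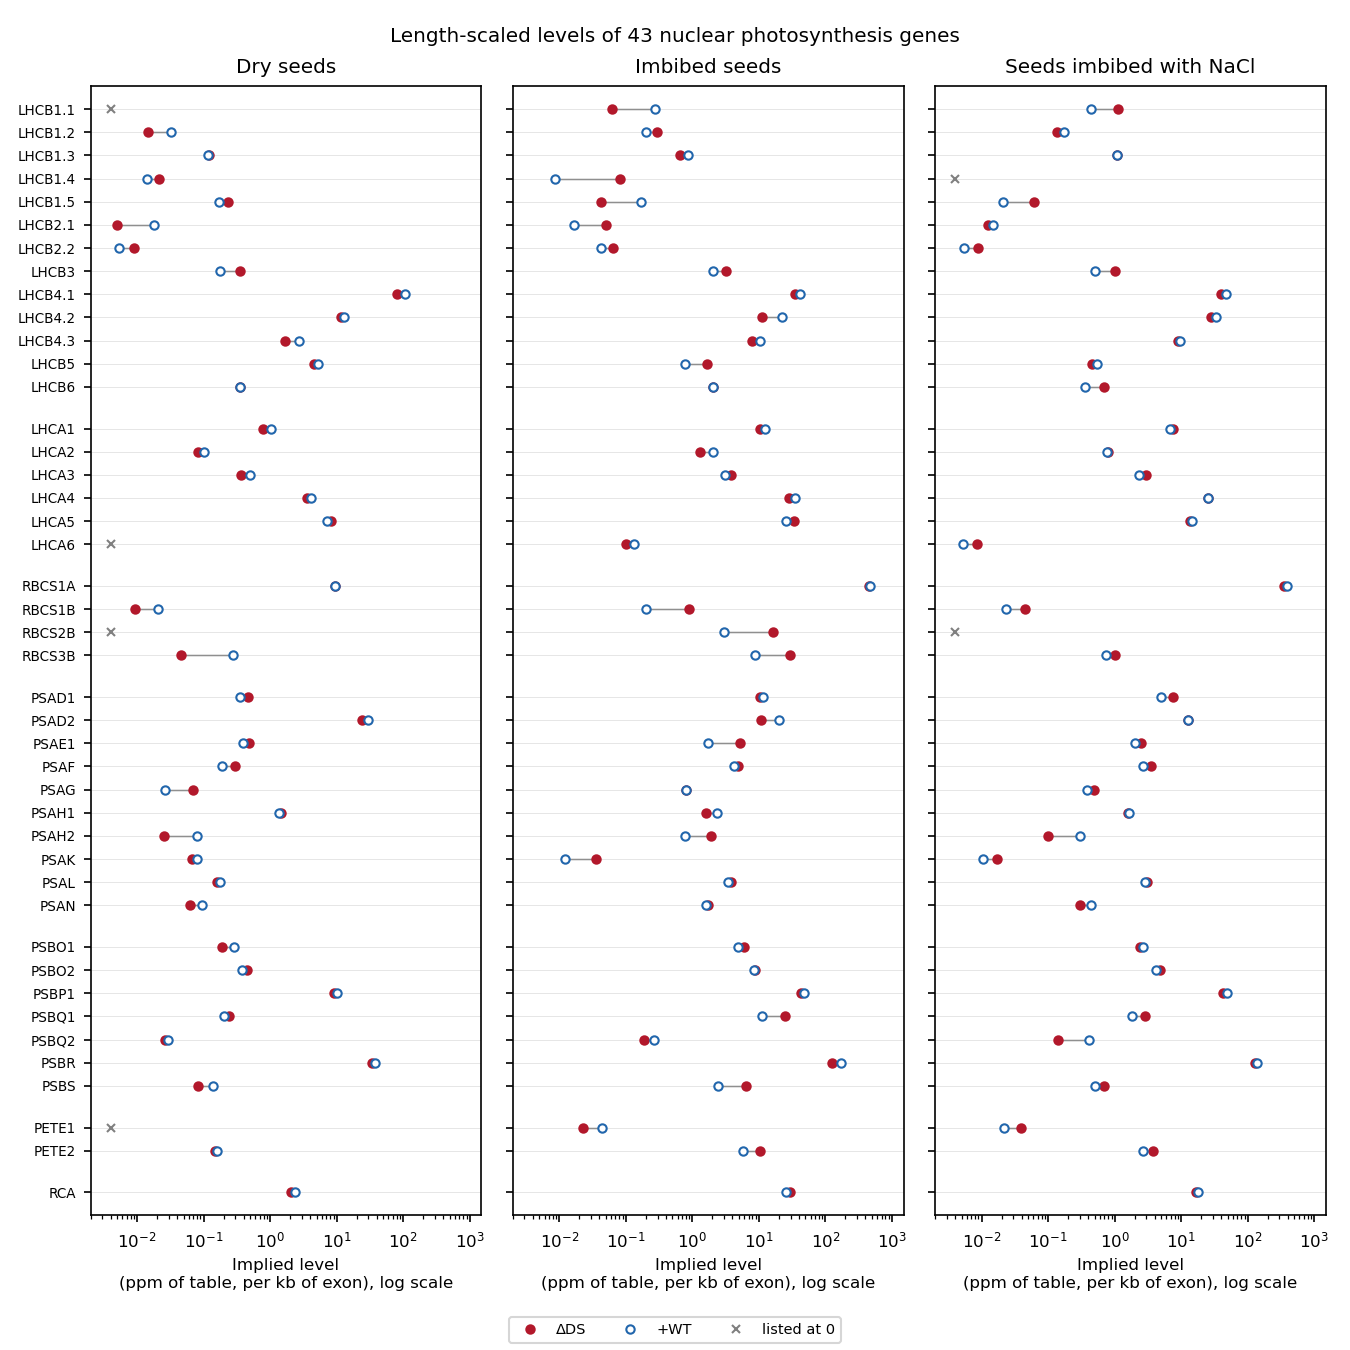
Implied level of each of the 43 genes in ppm of the table per kilobase of exon (log axis) in dry, imbibed and salt seeds, ΔDS as filled red and +WT as open blue circles, with crosses for genes listed at 0. RBCS1A reaches 457 ppm in imbibed ΔDS and 476 ppm in imbibed +WT seeds, while the LHCB1 and LHCB2 genes stay near or under 1 ppm in every state.

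The complexes were not represented evenly. In dry seeds LHCB4.1 (AT5G01530, chr5:208866-210548), an LHCB4 (CP29) protein that links the outer antenna to the core of photosystem II, alone supplied 43.3% of the summed level of the 43 genes, at 93.1 ppm. PSBR (AT1G79040, chr1:29735952-29737009), a small subunit of the oxygen-evolving side of photosystem II, followed with 35.7 ppm. PSAD2 (AT1G03130, chr1:753307-754262), a copy of the subunit of photosystem I on which ferredoxin docks, had 26.9 ppm. These 3 genes held 72.5% of the dry total, and 4 members, LHCB1.1 (AT1G29920), LHCA6 (AT1G19150), RBCS2B (AT5G38420, chr5:15380907-15382071) and PETE1 (AT1G76100), were listed at 0.

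After imbibition the order was different. RBCS1A (AT1G67090), a gene of the Rubisco small subunit, led with 467 ppm and 48.8% of the summed level, and PSBR was second with 150 ppm. The same pair led in salt seeds, RBCS1A with 371 ppm and PSBR with 133 ppm. Median levels by complex in imbibed seeds ran from 0.752 ppm for LHCB and 2.73 ppm for photosystem I through 4.05 ppm for plastocyanin, 7.48 ppm for LHCA, 8.60 ppm for photosystem II and 14.5 ppm for the Rubisco small subunit to 27.5 ppm for RCA. The median of all tested genes in that table was 13.1 ppm.

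The median ratio of the imbibed to the dry level also differed between complexes. It was 3.50 for 12 LHCB genes, 8.25 for 5 LHCA genes, 12.4 for RCA, 17.8 for 10 photosystem I genes, 20.6 for 7 photosystem II genes, 49.4 for 3 Rubisco small subunit genes and 52.2 for PETE2 (AT1G20340, chr1:7042046-7043392), the plastocyanin copy with a dry level above 0. These medians include genes with few dry counts, such as PSAG with a mean of 0.696. Ratios of the summed levels were 0.625 for LHCB, 1.47 for photosystem I, 4.98 for photosystem II and 5.98 for LHCA. They were 12.4 for RCA, 51.6 for the Rubisco small subunit and 52.4 for plastocyanin. The summed LHCB level was thus lower in imbibed than in dry seeds, at 71.0 ppm against 114 ppm. LHCB4.1 alone made up 37.9 ppm of the imbibed and 93.1 ppm of the dry sum, so this fall is that of 1 gene. Levels of 3 of the 12 LHCB genes and 2 of the 10 photosystem I genes were lower after imbibition than in dry seeds, LHCB4.1 and PSAD2 among them. No LHCA gene, photosystem I gene, Rubisco small subunit gene or plastocyanin gene had a higher level in salt than in imbibed seeds, whereas 5 of 13 LHCB and 2 of 7 photosystem II genes did.

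Few members differed between genotypes in dry and salt seeds, and those that did in imbibed seeds went both ways. For dry seeds the authors' deposited table gave 21 of the 43 genes an adjusted p, and 22 had none. Of the 21, 0 were higher and 2 lower in ΔDS at a DESeq2 adjusted p under 0.05 (9.52%), and 0 higher and 3 lower at an unadjusted p under 0.05. Over all 16597 tested genes 6.06% were called, 2.96% higher and 3.10% lower. In imbibed seeds 38 genes were tested, of which 7 were higher and 4 lower in ΔDS (28.9%), while of all 19430 tested genes 40.8% were called, 21.3% higher and 19.5% lower. With NaCl 34 genes were tested, of which 0 were higher and 2 lower by the DESeq2 adjusted p (5.88%), and 2 higher and 3 lower by the unadjusted p, while of all 18518 tested genes 14.0% were called, 6.98% higher and 6.99% lower. Median log2 fold changes over the tested members were -0.17, 0.03 and 0.01 in dry, imbibed and salt seeds of the authors' deposited tables, and those over all tested genes were 0.00, 0.02 and 0.00. A gene without an adjusted p had too few reads for the authors' filter, so the tested members are not all members.

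The balance of directions depended on the scaling. Implied totals of normalised counts were lower in ΔDS, and scaling to equal totals adds 0.08, 0.19 and 0.16 to every log2 fold change in dry, imbibed and salt seeds. The median over all tested genes was then 0.08, 0.20 and 0.16, against 0.00, 0.02 and 0.00 with the authors' size factors. Under that scaling the share of called genes that were higher in ΔDS was 82.9%, 77.2% and 89.8% in dry, imbibed and salt seeds, against 48.9%, 52.1% and 50.0% with the authors' size factors.

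**Figure D2:**
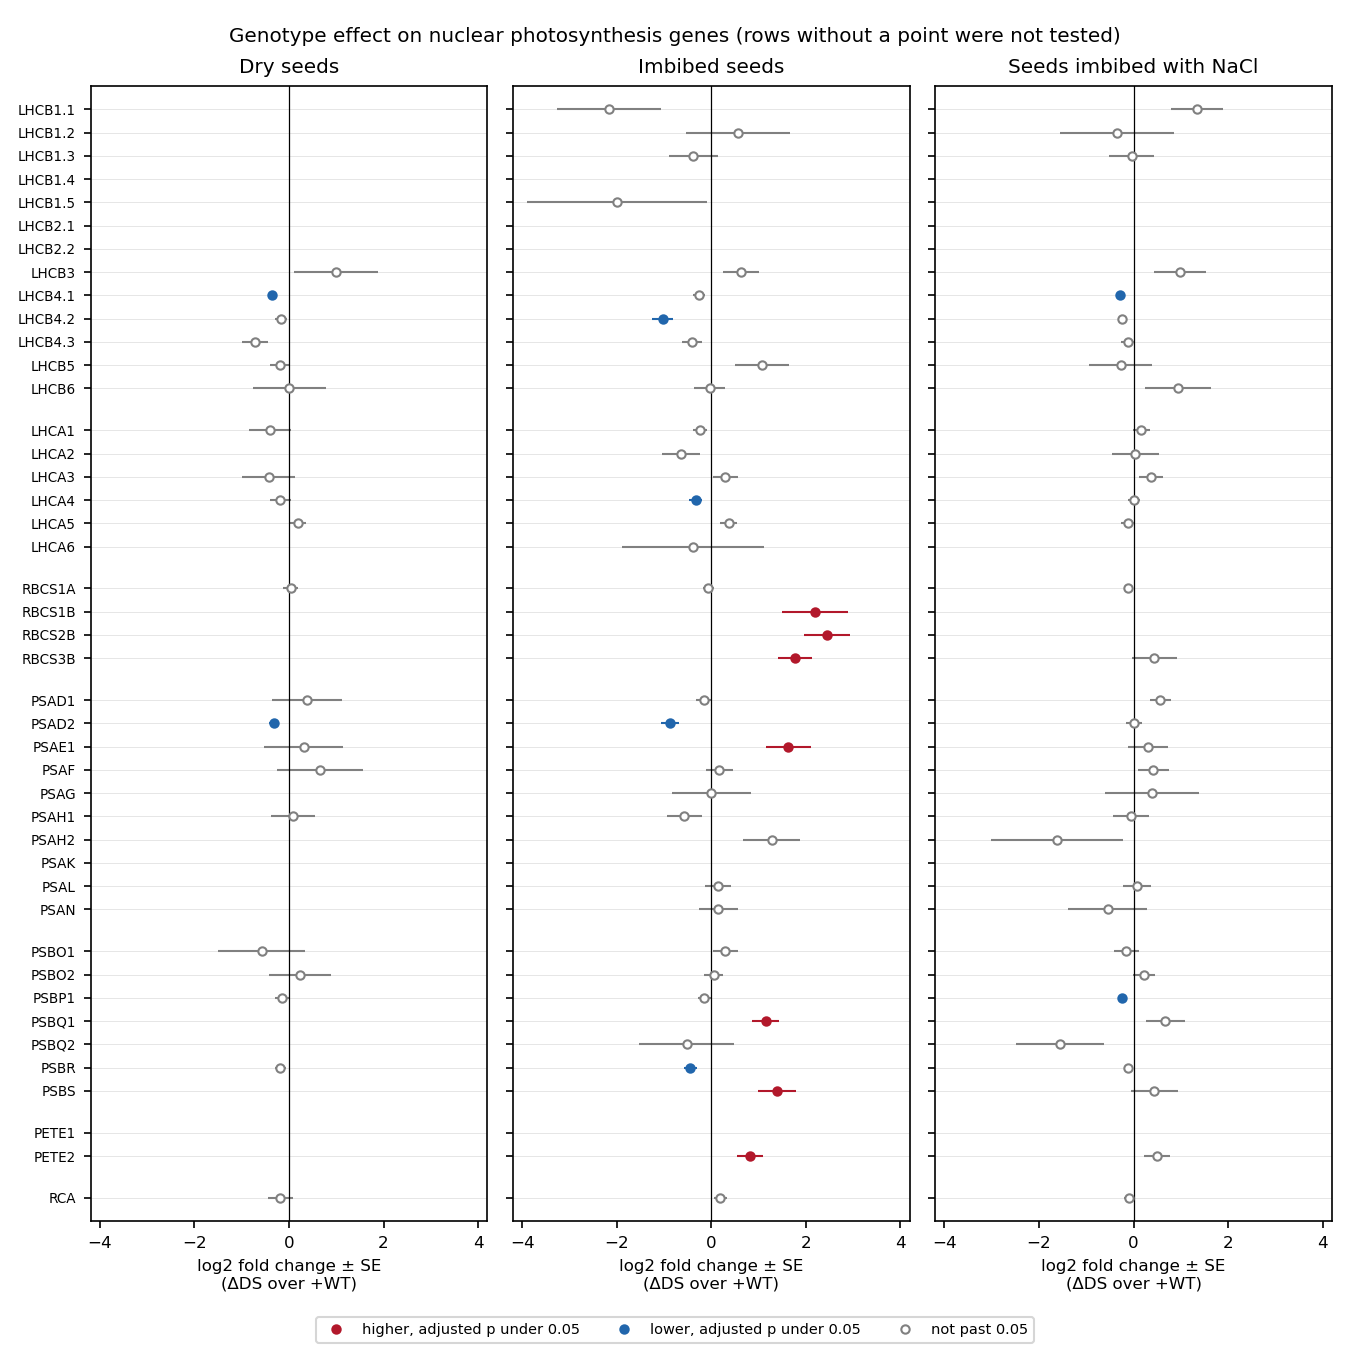
Log2 fold change of ΔDS over +WT with its SE for each tested member in dry, imbibed and salt seeds, from the authors' deposited tables. Red points are higher and blue points lower in ΔDS at an adjusted p under 0.05, open points did not pass, and rows without a point were not tested. Red points appear in imbibed seeds, where 7 members were higher and 4 lower.

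Rubisco small subunit copies showed the largest fold changes among the called members. RBCS1A lies on chromosome 1, while RBCS1B (AT5G38430, chr5:15383167-15385320), RBCS2B and RBCS3B (AT5G38410, chr5:15376988-15378642) lie next to each other on the minus strand of chromosome 5, between positions 15376988 and 15385320 of TAIR10.1. Their first coding exons are shown because reads from such similar copies can be hard to assign. They were read from the RefSeq TAIR10.1 genome (the authors' processing notes name TAIR10), and capitals mark bases that differ from RBCS1A.
RBCS1A, chr1:25049079-25049249, minus strand: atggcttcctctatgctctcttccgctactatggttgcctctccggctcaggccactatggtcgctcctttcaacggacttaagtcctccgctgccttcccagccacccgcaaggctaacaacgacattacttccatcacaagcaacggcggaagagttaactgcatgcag
RBCS1B, chr5:15384985-15385155, minus strand: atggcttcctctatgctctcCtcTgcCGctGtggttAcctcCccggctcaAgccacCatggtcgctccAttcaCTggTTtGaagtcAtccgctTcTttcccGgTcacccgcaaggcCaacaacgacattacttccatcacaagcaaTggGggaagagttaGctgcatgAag
RBCS2B, chr5:15381808-15381978, minus strand: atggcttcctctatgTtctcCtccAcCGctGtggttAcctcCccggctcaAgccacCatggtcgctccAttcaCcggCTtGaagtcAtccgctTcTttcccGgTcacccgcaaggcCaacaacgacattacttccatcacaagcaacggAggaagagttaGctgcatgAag
RBCS3B, chr5:15378136-15378306, minus strand: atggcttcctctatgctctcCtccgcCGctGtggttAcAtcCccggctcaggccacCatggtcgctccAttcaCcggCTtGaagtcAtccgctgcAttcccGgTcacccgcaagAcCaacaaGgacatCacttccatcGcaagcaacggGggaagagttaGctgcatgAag
Over these 171 bases the chromosome 5 copies were 85.4% to 86.0% identical to RBCS1A and 93.0% to 95.9% identical to each other. Of all 31-base words in the exons, 4.50% of those of RBCS1A, 18.9% of those of RBCS1B, 37.1% of those of RBCS2B and 20.7% of those of RBCS3B also occur in another gene. The sources used here do not say how reads that fit several genes were assigned, so the division among the chromosome 5 copies is uncertain, and their sum is given beside the single values.

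RBCS2B had 233 implied normalised counts in imbibed ΔDS seeds and 42.8 in imbibed +WT seeds. The authors' deposited table gave it a log2 fold change of 2.45 ± 0.48 (adjusted p = 7.99e-06), and listed it at 0 in dry and salt seeds. RBCS3B had 639 implied counts in imbibed ΔDS and 187 in imbibed +WT seeds, a log2 fold change of 1.77 ± 0.36 in the authors' deposited table (adjusted p = 1.57e-05). RBCS1B was the least abundant, with 26.0 implied counts in imbibed ΔDS and 5.68 in imbibed +WT seeds (2.19 ± 0.70, adjusted p = 0.00645, in the authors' deposited table). All 3 chromosome 5 copies were thus higher in imbibed ΔDS seeds, by 3.42-fold to 5.45-fold.

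RBCS1A, by far the most abundant copy, did not pass the threshold in any state. It had 8776 implied counts in imbibed ΔDS and 9135 in imbibed +WT seeds, a log2 fold change of -0.06 ± 0.12 in the authors' deposited table (adjusted p = 0.741). In salt seeds it had 7781 implied counts in ΔDS and 8371 in +WT, and in dry seeds 229 in ΔDS and 222 in +WT. Summed over the chromosome 5 copies, the level was 47.3 ppm in imbibed ΔDS and 12.0 ppm in imbibed +WT seeds, a 3.95-fold difference. These copies held 9.37% of the Rubisco small subunit level in imbibed ΔDS and 2.45% in imbibed +WT seeds. The level summed over all 4 copies was 504 ppm in ΔDS and 488 ppm in +WT, a ratio of 1.03.

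With NaCl the chromosome 5 copies stayed low in both genotypes. They summed to 1.05 ppm in salt ΔDS and 0.760 ppm in salt +WT seeds, or 0.292% of the small subunit level in ΔDS and 0.197% in +WT. RBCS3B had 24.3 implied counts in salt ΔDS and 17.8 in salt +WT seeds (0.44 ± 0.48, adjusted p = 0.657, in the authors' deposited table). In dry seeds its implied counts were 1.21 in ΔDS and 7.25 in +WT, too few for the authors' filter. The difference in genotype effect on RBCS3B between salt and imbibed seeds, -1.33 ± 0.60, did not pass (adjusted p = 0.143).

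**Figure D3:**
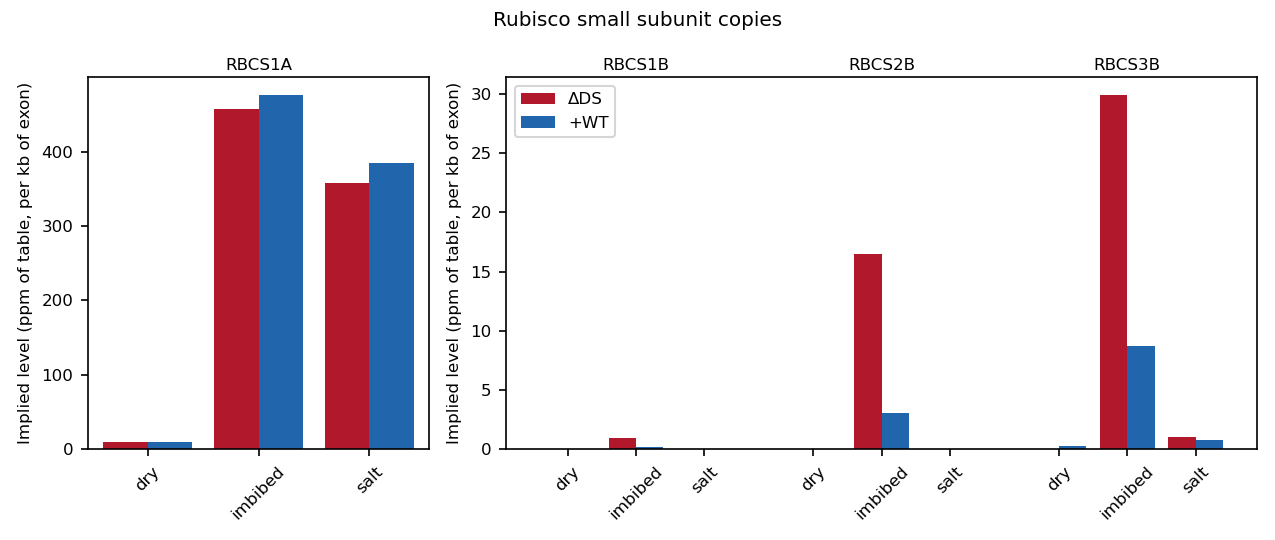
Bars give the implied level in ppm of the table per kilobase of exon of the 4 Rubisco small subunit genes in dry, imbibed and salt seeds, ΔDS in red and +WT in blue, with no error bars because values per library are not given. The vertical scales of the panels differ: RBCS1A stands at 457 ppm in imbibed ΔDS and 476 ppm in imbibed +WT seeds, and RBCS2B at 16.5 ppm in imbibed ΔDS and 3.02 ppm in imbibed +WT seeds.

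Among the photosystem II antenna genes, the ones for the major trimeric antenna were hardly detected. LHCB1.1, LHCB1.2 (AT1G29910), LHCB1.3 (AT1G29930), LHCB1.4 (AT2G34430) and LHCB1.5 (AT2G34420) with LHCB2.1 (AT2G05100) and LHCB2.2 (AT2G05070) encode most of the antenna protein of green leaves. These 7 genes did not exceed a mean of 22.9 normalised counts in any of the authors' deposited tables. Between 23.5% and 39.4% of their 31-base words occur in another gene, so their values are also uncertain, and none passed the threshold with the authors' size factors. LHCB3 (AT5G54270), the other subunit of these trimers, had 60.1 implied counts in imbibed ΔDS and 38.9 in imbibed +WT seeds, which did not pass (0.63 ± 0.38, adjusted p = 0.182, in the authors' deposited table).

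The LHCB4 copies carried most of the LHCB level. LHCB4.1 had 2143 implied counts in dry ΔDS seeds and 2748 in dry +WT seeds. This was, by the authors' deposited table, a log2 fold change of -0.36 ± 0.073 (adjusted p = 6.93e-05), with a level 1.28-fold higher in +WT. It was also lower in salt ΔDS seeds, with 943 implied counts against 1143 in salt +WT seeds (-0.28 ± 0.079, adjusted p = 0.00530, in the authors' deposited table). With imbibition alone it had 729 implied counts in ΔDS and 871 in +WT, and the authors' deposited table gave -0.26 ± 0.12 (adjusted p = 0.0692). The effect on LHCB4.1 was thus of like size in the 3 states, and no difference between states passed. Scaled by library totals, the call in salt seeds was lost (-0.12, adjusted p = 0.296).

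LHCB4.2 (AT3G08940, chr3:2717557-2718923), a close relative of LHCB4.1, was lower in imbibed ΔDS seeds, with 228 implied counts against 465 in imbibed +WT seeds. The authors' deposited table gave -1.03 ± 0.22 (adjusted p = 2.48e-05), and the gene overlaps another annotated locus. In dry seeds it had 299 implied counts in ΔDS and 336 in +WT, and in salt seeds 655 in ΔDS and 775 in +WT, and neither passed. Its genotype effect differed between imbibed and dry seeds by -0.86 ± 0.25 (adjusted p = 0.00435) and between salt and imbibed seeds by 0.79 ± 0.23 (adjusted p = 0.0179). The difference was called for 25.0% of 16228 genes between imbibed and dry seeds and for 9.16% of 18219 genes between salt and imbibed seeds. LHCB4.3 (AT2G40100) did not pass in any state, with 171 implied counts in imbibed ΔDS and 227 in imbibed +WT seeds.

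Minor antenna proteins LHCB5 (AT4G10340) and LHCB6 (AT1G15820), which sit between the trimers and the core, were low and did not pass. LHCB5 had 121 implied counts in dry ΔDS and 139 in dry +WT seeds, and 34.7 in imbibed ΔDS and 16.5 in imbibed +WT seeds. Its log2 fold change in imbibed seeds was 1.07 ± 0.57 in the authors' deposited table (adjusted p = 0.121). LHCB5 was thus among the members whose level was lower after imbibition, as LHCB4.1 was. LHCB6 had 37.3 implied counts in imbibed ΔDS and 38.0 in imbibed +WT seeds.

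The photosystem I antenna moved little between genotypes. LHCA4 (AT3G47470, chr3:17493343-17495033), known for its red-shifted chlorophylls, had 555 implied counts in imbibed ΔDS and 696 in imbibed +WT seeds. The authors' deposited table gave -0.33 ± 0.14 (adjusted p = 0.0405), and scaled by library totals the call was lost (-0.14, adjusted p = 0.417). Its dimer partner LHCA1 (AT3G54890) had 203 implied counts in imbibed ΔDS and 240 in imbibed +WT seeds and did not pass (adjusted p = 0.204 in the authors' deposited table). LHCA5 (AT1G45474), a protein that helps to join photosystem I to another complex, had 541 implied counts in imbibed ΔDS and 418 in imbibed +WT seeds. With genotypes pooled, LHCA5 had the highest dry level of the LHCA genes (7.78 ppm), and in imbibed seeds 29.6 ppm beside 31.9 ppm for LHCA4. LHCA5 also overlaps another annotated locus. By the authors' deposited table its log2 fold change of 0.37 ± 0.18 did not pass (adjusted p = 0.0818), but when scaled by library totals it did (0.56, adjusted p = 0.00643). LHCA2 (AT3G61470), LHCA3 (AT1G61520) and LHCA6 did not pass in imbibed seeds, and no LHCA gene passed in dry or salt seeds with the authors' size factors.

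Photosystem I subunits included genes called in opposite directions. PSAE1 (AT4G28750, chr4:14202758-14204061), a stromal subunit near the ferredoxin site, had 63.7 implied counts in imbibed ΔDS and 20.5 in imbibed +WT seeds. In the authors' deposited table its log2 fold change was 1.63 ± 0.48 (adjusted p = 0.00307), and the gene overlaps 2 other annotated loci. In salt seeds it had 33.7 implied counts in ΔDS and 27.5 in +WT, which did not pass.

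PSAD2 was lower in imbibed ΔDS seeds, with 157 implied counts against 286 in imbibed +WT seeds (-0.87 ± 0.19, adjusted p = 6.69e-05, in the authors' deposited table). In dry seeds it had 431 implied counts in ΔDS and 536 in +WT, and the authors' deposited table gave -0.32 ± 0.10 (adjusted p = 0.0384). That dry call was lost when p was adjusted over all genes with a p (adjusted p = 0.0503), scaled by library totals (0.142) or after removing a trend over exon length (0.114). In salt seeds PSAD2 had 211 implied counts in ΔDS and 209 in +WT. Its genotype effect differed between salt and imbibed seeds by 0.88 ± 0.25 (adjusted p = 0.0119), and between imbibed and dry seeds by -0.55 ± 0.22 (adjusted p = 0.0460), of which the second was lost under scaling by library totals (adjusted p = 0.123) and with p adjusted over all genes (0.0571).

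PSAD1 (AT4G02770), the other gene of the same subunit, had another course over the seed states. Its pooled level was 0.409 ppm in dry, 11.0 ppm in imbibed and 6.30 ppm in salt seeds, whereas that of PSAD2 was 26.9, 15.3 and 12.8 ppm in the same states. PSAD1 had 178 implied counts in imbibed ΔDS and 199 in imbibed +WT seeds, a log2 fold change of -0.16 ± 0.17 in the authors' deposited table (adjusted p = 0.470). The effects on the PSAD copies were not tested against each other. Of the remaining photosystem I genes, PSAF (AT1G31330), PSAG (AT1G55670), PSAH1 (AT3G16140), PSAH2 (AT1G52230), PSAL (AT4G12800) and PSAN (AT5G64040) were tested in imbibed and salt seeds without passing, and PSAK (AT1G30380) was not tested in any state, with at most 1.07 mean normalised counts in the authors' deposited tables.

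Among the photosystem II genes, PSBS (AT1G44575, chr1:16870221-16873427), which senses the acidity of the thylakoid lumen and triggers the release of excess light energy as heat, had 173 implied counts in imbibed ΔDS seeds and 66.0 in imbibed +WT seeds. Its log2 fold change in the authors' deposited table was 1.39 ± 0.40 (adjusted p = 0.00238). PSBQ1 (AT4G21280, chr4:11334352-11335815), an extrinsic protein of the oxygen-evolving complex, had 370 implied counts in imbibed ΔDS and 167 in imbibed +WT seeds (1.15 ± 0.29, adjusted p = 5.26e-04, in the authors' deposited table). With NaCl neither passed, and PSBQ1 had 49.0 implied counts in salt ΔDS and 30.9 in salt +WT seeds. The differences between salt and imbibed seeds, -0.95 ± 0.64 for PSBS (adjusted p = 0.365) and -0.48 ± 0.50 for PSBQ1 (adjusted p = 0.599), did not pass.

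PSBR was lower in imbibed ΔDS seeds, with 1510 implied counts against 2048 in imbibed +WT seeds. The authors' deposited table gave -0.44 ± 0.13 (adjusted p = 0.00313), a call that was lost when scaled by library totals (-0.25, adjusted p = 0.101). PSBP1 (AT1G06680, chr1:2047634-2049439), another extrinsic protein of the oxygen-evolving complex, was lower in salt ΔDS seeds, with 978 implied counts against 1153 in salt +WT seeds (-0.24 ± 0.077, adjusted p = 0.0196, in the authors' deposited table). That call was also lost with scaling by library totals (-0.08, adjusted p = 0.514). PSBO1 (AT5G66570) and PSBO2 (AT3G50820), which stabilise the manganese cluster, did not pass in any state, and PSBQ2 (AT4G05180) had at most 6.04 mean normalised counts in the authors' deposited tables.

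Plastocyanin was represented by PETE2, with 210 implied counts in imbibed ΔDS and 119 in imbibed +WT seeds. Its log2 fold change was 0.82 ± 0.28 in the authors' deposited table (adjusted p = 0.00994). In salt seeds it had 88.4 implied counts in ΔDS and 62.7 in +WT (0.50 ± 0.27, adjusted p = 0.259, in the authors' deposited table). PETE1, the other plastocyanin gene, was not tested in any state. RCA did not pass with the authors' size factors, with 933 implied counts in imbibed ΔDS and 817 in imbibed +WT seeds (0.19 ± 0.14, adjusted p = 0.257, in the authors' deposited table), but was higher when scaled by library totals (0.38, adjusted p = 0.0159).

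Across the seed states, 2 of 21 members tested in both tables differed in genotype effect between imbibed and dry seeds (9.52%) and 2 of 34 between salt and imbibed seeds (5.88%), LHCB4.2 and PSAD2 each time. Over all genes these shares were higher, at 25.0% of 16228 between imbibed and dry seeds and 9.16% of 18219 between salt and imbibed seeds. Between salt and dry seeds 0 of 21 differed by the z test on the DESeq2 values, and 0 at an unadjusted p under 0.05, while 5.83% of 16281 genes differed after adjustment. The 7 members that were higher in imbibed ΔDS seeds could mostly not enter the comparison with dry seeds, since of these PSAE1 alone had an adjusted p there (difference 1.32 ± 0.97, adjusted p = 0.333). When p was instead adjusted over all genes with a p, RBCS3B also differed between imbibed and dry seeds, by 4.35 ± 1.2 (adjusted p = 0.00426).

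Members called in opposite directions in imbibed seeds also stood apart in their dry level, which the call did not use. In dry seeds the 7 higher members had between 0 and 6.49 mean normalised counts by the authors' deposited table, and levels from 0 to 0.433 ppm. The 4 lower members had between 94.2 and 526 mean normalised counts and levels from 3.87 to 35.7 ppm there, so the sets did not overlap. Among the 27 tested members that were not called, dry levels ran from 0 to 93.1 ppm and covered both ranges. Outside the members the ranges did overlap. Over all genes they ran from 0 to 792 ppm for the higher and from 0 to 48566 ppm for the lower genes. Over the other photosynthesis genes described below they ran from 0.0158 to 37.8 ppm (higher) and from 0.313 to 130 ppm (lower).

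Outside the members a like relation was measured. The log2 of the dry level was set against the log2 fold change in imbibed seeds. Pearson's r was -0.38 and Spearman's rho -0.37 across the 35 members tested in imbibed seeds with a dry level above 0. Across 56 other photosynthesis genes chosen in the same way, r was -0.62 and rho -0.61. Across all 18669 such genes r was -0.43 and rho -0.41. Genes are not independent replicates and share their libraries, so these are descriptions. Median dry levels were 1.81 ppm for all 4130 genes higher and 25.6 ppm for all 3794 genes lower in imbibed ΔDS seeds.

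**Figure D4:**
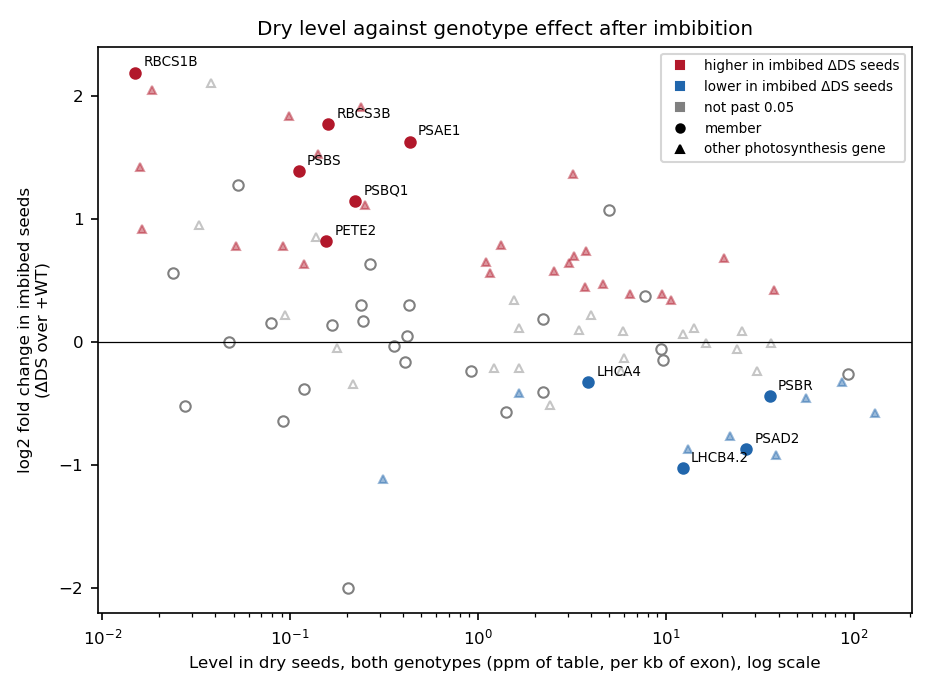
Level in dry seeds with both genotypes pooled (ppm of the table per kilobase of exon, log axis) against the log2 fold change of ΔDS over +WT in imbibed seeds, for members (circles) and other photosynthesis genes (triangles) with a dry level above 0. Red is higher and blue lower in imbibed ΔDS seeds at an adjusted p under 0.05. Called members lie above the line at dry levels up to 0.433 ppm and below it from 3.87 ppm; RBCS2B, listed at 0 in dry seeds, is not drawn.

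Promoters of members that moved in each direction are shown because light-responsive genes often carry short motifs known to bind regulators. The I-box (GATAAG), the G-box (CACGTG) and the core of the abscisic acid response element (ABRE, ACGTG) were searched on both strands of the 250 bases before the outermost annotated start, and every G-box holds the ABRE core. Sequences are from the RefSeq TAIR10.1 genome, 5′ to 3′ on the strand of the gene, and capitals mark the motifs. RBCS2B and PSBS were higher and LHCA4 and PSBR lower in imbibed ΔDS seeds, and LHCB4.1 was the most abundant member in dry seeds.
RBCS2B, chr5:15382072-15382321, minus strand: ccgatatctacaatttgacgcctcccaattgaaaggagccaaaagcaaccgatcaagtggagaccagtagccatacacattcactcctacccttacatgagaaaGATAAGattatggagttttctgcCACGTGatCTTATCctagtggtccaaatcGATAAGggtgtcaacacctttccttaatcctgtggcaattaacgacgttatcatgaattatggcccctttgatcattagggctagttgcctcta
PSBS, chr1:16869971-16870220, plus strand: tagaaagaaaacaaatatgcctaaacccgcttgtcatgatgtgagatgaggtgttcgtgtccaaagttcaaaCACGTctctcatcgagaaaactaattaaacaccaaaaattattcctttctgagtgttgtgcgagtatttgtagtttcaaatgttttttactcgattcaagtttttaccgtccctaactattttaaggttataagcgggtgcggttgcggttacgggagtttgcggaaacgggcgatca
LHCA4, chr3:17495034-17495283, minus strand: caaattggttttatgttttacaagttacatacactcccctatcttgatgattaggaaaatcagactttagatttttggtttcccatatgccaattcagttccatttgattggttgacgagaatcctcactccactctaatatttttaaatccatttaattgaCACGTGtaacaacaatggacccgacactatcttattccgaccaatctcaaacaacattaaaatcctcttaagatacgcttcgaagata
PSBR, chr1:29735702-29735951, plus strand: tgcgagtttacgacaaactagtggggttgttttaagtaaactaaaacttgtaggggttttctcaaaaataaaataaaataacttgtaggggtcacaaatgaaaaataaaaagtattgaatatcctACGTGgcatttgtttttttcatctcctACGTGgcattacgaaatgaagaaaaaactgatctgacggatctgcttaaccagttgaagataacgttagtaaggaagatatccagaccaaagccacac
LHCB4.1, chr5:208616-208865, plus strand: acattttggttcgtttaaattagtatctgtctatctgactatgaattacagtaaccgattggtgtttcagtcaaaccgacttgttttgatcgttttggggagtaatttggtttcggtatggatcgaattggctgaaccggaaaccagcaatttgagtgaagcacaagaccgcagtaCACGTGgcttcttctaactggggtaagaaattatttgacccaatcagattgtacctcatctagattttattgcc
The RBCS2B window held 3 I-boxes and 1 G-box, the windows of LHCA4 and LHCB4.1 held 1 G-box each, and those of PSBS and PSBR held ABRE cores without a G-box. The windows shown are a selection, and each holds a motif. Those of RBCS1B and RBCS3B, also higher in imbibed ΔDS seeds, and of PSAD2, lower there, held none of these motifs. Windows of the copies lie at unlike distances from the coding start, because annotated starts differ. The window begins at 15382072 for RBCS2B and 15378643 for RBCS3B, and their coding starts are at 15381978 and 15378306.

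Over all 43 members, 27.9% of the windows held an I-box, 16.3% a G-box and 39.5% an ABRE core. In all 27443 coding genes of the annotation these shares were 12.3%, 6.49% and 22.9%. Of the 7 members higher in imbibed ΔDS seeds, 2 held an I-box, 2 a G-box and 5 an ABRE core. Of the 4 lower members, 1 held an I-box, 1 a G-box and 2 an ABRE core. Over all 4050 coding genes higher in imbibed ΔDS seeds, the shares in the same order were 11.4%, 6.86% and 22.6%. Over all 3687 lower coding genes they were 13.6%, 11.2% and 28.5%. Motifs of each kind thus occurred in members of both directions. A match is a string of letters and does not show a bound site.

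Other nuclear genes of photosynthesis, 57 in 4 lists, were called in both directions in each state. In dry ΔDS seeds 2 were higher and 4 lower of 43 tested (14.0%), where 6.06% of all tested genes were called. In imbibed ΔDS seeds 25 were higher and 8 lower of 56 (58.9%), where 40.8% of all tested genes were called, 21.3% higher and 19.5% lower. In salt ΔDS seeds 2 were higher and 4 lower of 55 (10.9%), where 14.0% of all tested genes were called. Whether the shares of called genes differ between these lists, the members and all genes was not tested. Chlorophyll synthesis had the highest share of higher genes, with 8 of 13 higher and 1 lower and a median log2 fold change of 0.63 by the authors' deposited table.

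PORB, which reduces protochlorophyllide in light, had 777 implied counts in imbibed ΔDS and 207 in imbibed +WT seeds (1.91 ± 0.31, adjusted p = 4.55e-08, in the authors' deposited table). CHLI1 and CHLD, subunits of the magnesium chelatase that opens the chlorophyll branch, had the highest levels of the list in imbibed seeds, with 67.4 and 57.5 ppm, while in dry and salt seeds CAO led with 38.4 and 29.7 ppm. CHLI1 had 2072 implied counts in imbibed ΔDS and 1209 in imbibed +WT seeds (0.78 ± 0.23, adjusted p = 0.00390, in the authors' deposited table). CAO, which makes chlorophyll b, was the lower gene of the list, with 400 implied counts in imbibed ΔDS and 758 in imbibed +WT seeds (-0.92 ± 0.20, adjusted p = 4.31e-05, in the authors' deposited table).

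Of the other thylakoid subunits, 8 of 18 tested were higher and 2 lower in imbibed ΔDS seeds. PSBY, a small subunit of photosystem II, had 340 implied counts in imbibed ΔDS and 118 in imbibed +WT seeds (1.53 ± 0.29, adjusted p = 3.50e-06, in the authors' deposited table). FD1, a ferredoxin, was the most abundant of the list in imbibed seeds, with 1450 implied counts in ΔDS and 892 in +WT (0.70 ± 0.23, adjusted p = 0.00831, in the authors' deposited table). PSB27, which assists the assembly and repair of photosystem II, was lower in both dry and imbibed ΔDS seeds. In dry seeds it had 1154 implied counts in ΔDS against 1601 in +WT (-0.47 ± 0.091, adjusted p = 1.81e-05, in the authors' deposited table). For imbibed seeds the authors' deposited table gave -0.46 ± 0.11 (adjusted p = 3.08e-04). In salt seeds 0 of 17 passed with the DESeq2 adjusted p, and 1 was higher and 1 lower at an unadjusted p under 0.05.

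Calvin cycle enzymes gave 3 higher and 2 lower of 12 in imbibed ΔDS seeds (41.7%), near the 40.8% of all tested genes. CP12-1, a small protein that binds and switches off enzymes of the cycle, had the highest level and was lower in ΔDS, with 2782 implied counts against 4167 in imbibed +WT seeds (-0.58 ± 0.12, adjusted p = 1.64e-05, in the authors' deposited table). GAPA2, a subunit of glyceraldehyde 3-phosphate dehydrogenase, had 142 implied counts in imbibed ΔDS and 54.8 in imbibed +WT seeds (1.37 ± 0.35, adjusted p = 6.80e-04, in the authors' deposited table). RPE, ribulose phosphate epimerase, was lower in ΔDS seeds in all 3 states, with log2 fold changes of -0.24 ± 0.057 (dry), -0.33 ± 0.11 (imbibed) and -0.21 ± 0.055 (salt) in the authors' deposited tables. All 3 of these calls were lost with scaling by library totals, at -0.16, -0.15 and -0.05 (adjusted p = 0.0571, 0.292 and 0.553).

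The list of regulators of photosynthesis genes gave 6 higher and 3 lower of 13 in imbibed ΔDS seeds. It also holds the early light-induced proteins ELIP1 and ELIP2, which are not regulators and were among the 6. The authors' deposited table gave 0.68 ± 0.25 (adjusted p = 0.0212) for ELIP1 and 1.84 ± 0.60 (adjusted p = 0.00799) for ELIP2. PIF1, a transcription factor that represses germination and chlorophyll synthesis in the dark, had 6193 implied counts in imbibed ΔDS and 11297 in imbibed +WT seeds (-0.87 ± 0.15, adjusted p = 3.06e-07, in the authors' deposited table). Its relative PIF4 had 461 implied counts in imbibed ΔDS and 1000 in imbibed +WT seeds (-1.12 ± 0.21, adjusted p = 4.54e-06, in the authors' deposited table). GLK2, which activates antenna and chlorophyll genes, was higher in dry ΔDS seeds, with 623 implied counts against 449 in dry +WT seeds (0.47 ± 0.11, adjusted p = 0.00104, in the authors' deposited table). GUN1, a plastid protein of the signalling from plastid to nucleus, had 8461 implied counts in imbibed ΔDS and 6303 in imbibed +WT seeds (0.42 ± 0.15, adjusted p = 0.0124, in the authors' deposited table). HY5, a light-responsive activator, did not pass in any state.

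**Figure D5:**
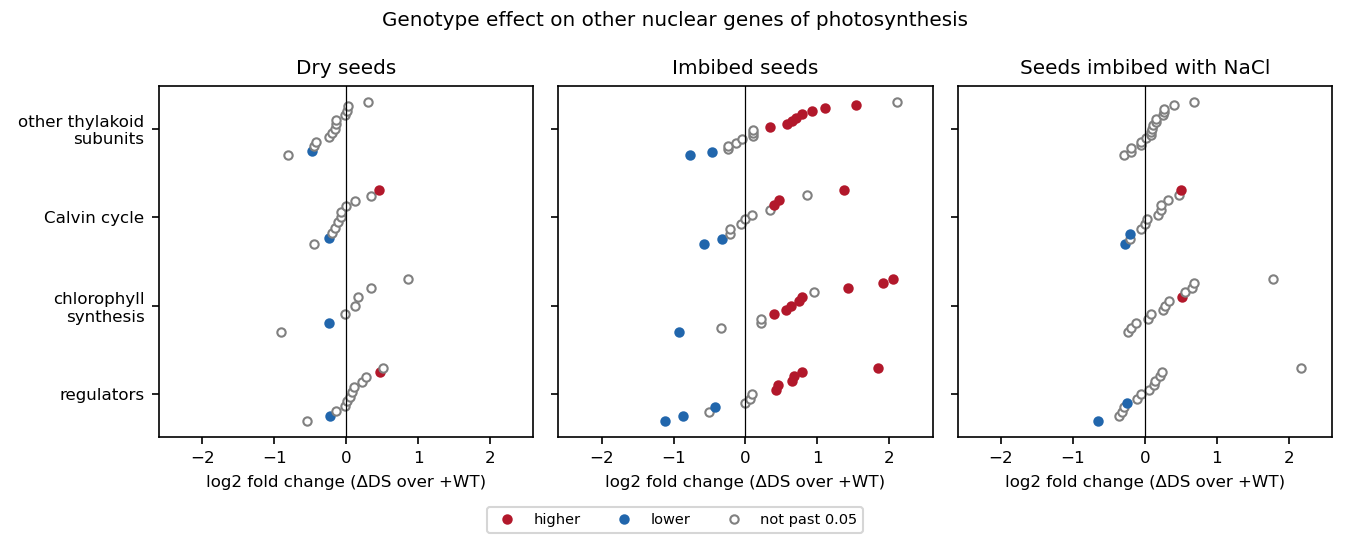
Log2 fold change of ΔDS over +WT of each tested gene of 4 lists of other photosynthesis genes in dry, imbibed and salt seeds, from the authors' deposited tables; within a list, points are spread vertically in order of their value. Filled red points are higher and filled blue points lower in ΔDS at an adjusted p under 0.05. In imbibed seeds 25 points are red and 8 blue, and in dry and salt seeds 2 are red and 4 blue each.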

How the data were processed

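RNA-seq of 18 seed samples in 6 groups was available as 3 tables of the authors' comparisons, with no values per library. The submitters' processing notes name HISAT2 and DESeq2, without versions, and TAIR10. Strandedness, the read counter and the handling of reads that fit several genes: not given in the sources used here. Per the file headers, the deposited columns are the mean normalised signal over libraries, a log2 fold change with its SE on the log2 scale, the Wald statistic (a score deposited by the authors), and the p-value and adjusted p-value given by the authors. The Wald score was the ratio of fold change to SE in each table.

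The planned count test could not be run without counts per library, so the authors' adjusted p at 0.05 was used, as the design provided. Seed states were compared by subtracting the deposited log2 fold changes of a gene, with a two-sided z test whose SE combined those of both tables. Its p-values were adjusted by Benjamini-Hochberg over every gene that the authors had tested in both tables. The step was tested on simulated data. Exon lengths, overlaps, shared 31-base words and 250-base promoter windows came from the RefSeq annotation of TAIR10.1, in which 32827 loci matched. The depth of each library is not given, so no counting interval is given.

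Members and lists were chosen with earlier results of these data known. Text names all 43 members, FLOE1, the marker genes, ELIP1 and ELIP2. From each list of other photosynthesis genes it also names a part of the leading genes. Leading genes had the smallest adjusted p (up to 2 per table) or the highest level (2 per table). Members that overlap other annotated loci include LHCB4.2, LHCA4, PSAD2, PSAE1, PSBP1 and PSBR, and without known strandedness their reads may not be separate. Alternatives were adjustment over every gene with a p, a minimum mean of 20 normalised counts, scaling by library totals, removal of a lowess trend over exon length (span 0.3), a fold change of at least 1.5, and coding in place of exon length for levels. Scripts used Python 3.11.15 with pandas 2.3.3, numpy 2.4.6, statsmodels 0.14.6 and scipy 1.17.1, and matplotlib 3.10.9 for figures.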

Additional observations from a re-analysis of the deposited data

Results flagged for a closer look

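The genotype effect (log2, ΔDS over +WT) of these genes differed between seed states by a test of the difference itself, an approximate z test with Benjamini-Hochberg adjustment. Over all genes, 25.0% differed between imbibed and dry seeds, 9.16% between salt and imbibed seeds and 5.83% between salt and dry seeds. Among members, LHCB4.2 differed by -0.86 (imbibed minus dry) and 0.79 (salt minus imbibed), and PSAD2 by -0.55 (imbibed minus dry) and 0.88 (salt minus imbibed). The call of -0.55 for PSAD2 was lost scaled by library totals, with p adjusted over all genes and at a difference of at least 1.5-fold. For both, the effect in imbibed seeds was the more negative, at -1.03 for LHCB4.2 and -0.87 for PSAD2 in the authors' deposited table.

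Among regulators, PIF1 differed by -1.14 (imbibed minus dry), 0.62 (salt minus imbibed) and -0.53 (salt minus dry). GUN1 differed by 0.64 (imbibed minus dry) and -0.47 (salt minus imbibed), and it was lower in dry ΔDS seeds but higher in imbibed ΔDS seeds in the authors' deposited tables. PIF4 differed by 0.83 (salt minus imbibed) and GLK2 by -0.48 (imbibed minus dry).

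In chlorophyll synthesis, PORB differed by 2.81 (imbibed minus dry) and -1.58 (salt minus imbibed), and CAO by -0.70 (imbibed minus dry) and 0.73 (salt minus imbibed). CP12-1 of the Calvin cycle differed by -0.52 (imbibed minus dry), and the ferredoxin FD2 by 0.52 (imbibed minus dry).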

How the results depend on the processing

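No paired analysis was possible because the tables give no values per library; for the same reason leaving out replicates and another count tool were not run. Scaled by library totals, 4 member effects in imbibed and 8 in salt seeds changed from negative to positive, none of them called under either scaling: in imbibed seeds LHCB6 (0.16), RBCS1A (0.13), PSAD1 (0.03) and PSBP1 (0.04), and in salt seeds LHCB1.3 (0.12), LHCB4.3 (0.05), LHCA5 (0.05), RBCS1A (0.05), PSAH1 (0.11), PSBO1 (0.01), PSBR (0.05) and RCA (0.05). With the length trend removed PSAG in imbibed seeds, 0.00 under both, changed sign within rounding. The members' called effects kept their sign under the 5 alternatives wherever these tested them. In dry seeds the 2 called members became 1 with p adjusted over all genes, 1 scaled by library totals, 1 with the length trend removed and 0 at a fold change of at least 1.5. At that fold the 2 called in salt seeds became 0. Scaled by library totals, salt seeds had 2 higher members (LHCB1.1, adjusted p = 0.0331, and PSAD1, adjusted p = 0.00713) and 0 lower, and imbibed seeds 10 higher and 2 lower. The 2 members differing between imbibed and dry seeds became 1 scaled by library totals and 1 at a difference of at least 1.5-fold. Called genes of the other lists became 10 in salt seeds scaled by library totals (all higher), and 0, 21 and 1 in dry, imbibed and salt seeds at a fold change of at least 1.5; of the 6, 33 and 6 genes of these lists called in dry, imbibed and salt seeds, 3, 3 and 4 lost the call scaled by library totals; for these lists the alternatives were chosen after seeing the data. Causes were not tested, beyond the narrower rule itself at the fold limit. Per coding length, median levels in dry, imbibed and salt seeds were 0.166, 0.692 and 0.504 ppm for LHCB, 0.715, 7.57 and 5.06 for LHCA, 0.141, 19.6 and 0.701 for RBCS, 0.207, 3.23 and 2.48 for photosystem I, 0.225, 6.89 and 2.35 for photosystem II, 0.129, 6.51 and 2.67 for plastocyanin, and 2.01, 24.1 and 15.4 for RCA. Low counts limited the members most in dry seeds, where 22 of 43 were not tested.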

Other observations

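All 133 genes encoded in the plastid genome were listed at 0 in each of the authors' deposited tables, so the large subunit of Rubisco and the plastid-encoded photosystem cores could not be set beside their nuclear partners.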
